A study of Mus musculus with 25 samples.

Results

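The 37 genes of the mouse mitochondrial genome were followed through a series of iCLIP and piCLIP libraries of the splicing factor SRSF7. The genes are 2 rRNAs (mt-Rnr1, the 12S rRNA, and mt-Rnr2, the 16S rRNA), 13 mRNAs and 22 tRNAs. Every crosslink event on the mitochondrial chromosome was taken from all 25 libraries and assigned to a gene by position and strand. These were 110407 of 25580576 events in all. iCLIP maps the nucleotide at which a protein was fixed to RNA by UV light, because reverse transcription stops there, and 1 event is 1 distinct cDNA that ends at a position. The material was P19, a mouse embryonal carcinoma line. Cells overexpressing SRSF7 with a GFP tag (labelled SRSF7-GFP OE) were irradiated at 254 nm and immunoprecipitated with goat anti-EGFP, written here as WT (3 libraries). The same was done for the GFP-tagged proteins labelled mutZn (SRSF7mutZn-GFP, 2 libraries) and D27aa (SRSF7D27aa-GFP, 2 libraries). Each of these proteins had 1 library without UV. A rabbit anti-SRSF7 antibody was used on SRSF7-GFP OE cells for the products titled GFP_OE (2), endo_OE (2) and RRM_OE (2), on cells of WT genotype for endo_WT (1), and on SRSF7-GFP OE cells without UV (1). A further SRSF7-GFP OE library was made with UV and no antibody (1). It, the anti-SRSF7 libraries other than the one without UV, and all piCLIP libraries were irradiated at 254 nm as well. In piCLIP, done on SRSF7-GFP OE cells, fractions labelled monosomal and polysomal were used, with 2 immunoprecipitates (IP) and 1 library titled IgG in each, although the antibody label of the IgG libraries also reads anti-EGFP. The labels say neither how the tagged proteins were expressed nor whether the cells were a single clone, and the overexpressing cells still carried their own SRSF7. Libraries are named by group and by the replicate number of their label, as in WT 2.

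Mitochondrial DNA is transcribed from both strands into long precursors. tRNAs lie between most of the rRNA and mRNA genes, and their excision by RNase P and RNase Z releases the transcripts on both sides. One strand gives both rRNAs, most tRNAs and every mRNA except mt-Nd6; the other gives mt-Nd6 and a minority of the tRNAs, and runs antisense to the rest. The mRNAs encode subunits of the respiratory chain: complex I (mt-Nd1 to mt-Nd6 and mt-Nd4l), cytochrome b of complex III (mt-Cytb), complex IV (mt-Co1 to mt-Co3) and the ATP synthase (mt-Atp6, mt-Atp8). SRSF7 is known as a nuclear, shuttling SR protein with an RNA recognition motif and a zinc knuckle, and these RNAs are made and kept inside mitochondria.

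Depth differed widely. With UV, anti-GFP iCLIP libraries held from 221521 (WT 2) to 11774078 (mutZn 3) events on placed chromosomes, and anti-SRSF7 libraries from 17745 to 471340. The controls without UV or antibody held 1780 to 88997 events and piCLIP libraries 1153 to 52393. The file headers name 6 sequencing runs: WT 2 and D27aa 1 shared one (run 5), WT 3, WT 4, mutZn 4, D27aa 2 and the D27aa library without UV another (run 6), and mutZn 3 lay in run 4 with the WT and mutZn libraries without UV. The anti-SRSF7 libraries came from runs 2 and 3, which hold no anti-GFP library. WT 2 stood apart from WT 3 and WT 4 in the tRNA and mRNA values given below, and WT comparisons are therefore also given without it. Crosslink events are not expression levels, so the P19 label was not checked against marker genes. Where a transcript gave fewer events, fewer molecules and less crosslinking per molecule cannot be told apart.

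A long stretch of the genome held almost no iCLIP events. Between positions 6409 and 10976 of chrM (mm9; 4566 nt, 28.0% of the genome), 1 of 110295 events of the 19 iCLIP libraries was found, at position 9459 in mutZn 4. The stretch begins inside mt-Co1 and ends inside mt-Nd4, and it holds 11 genes completely, 6 of them mRNAs and 5 tRNAs. These are mt-Co2, mt-Co3, mt-Atp6, mt-Atp8, mt-Nd3, mt-Nd4l, mt-Ts1, mt-Td, mt-Tk, mt-Tg and mt-Tr. The piCLIP libraries did hold events there, 19 of 112. In mono IP 1 they were 7 of 75 and in mono IP 2 they were 11 of 23. Those events lay in the 3′ part of mt-Co1 (6525 to 6651), in mt-Co2 (7370, 7463 and 7531), in mt-Atp6 (8287 to 8498) and in mt-Co3 (9286). The last of the 19 was in the polysomal IgG library, and poly IP 1 had 0 of 10 there. The stretch was thus nearly empty in the deep iCLIP files and held events in 3 of the 4 piCLIP libraries with any mitochondrial event. The headers of the piCLIP files carry another result type than those of the iCLIP files. The nuclear genome is known to hold copies of mitochondrial sequence, and how reads with several matches were placed is not given in the sources used here; its part in the empty stretch was not tested. The 11 genes are therefore treated as not measured by iCLIP, and mt-Co1 and mt-Nd4 as measured over 1082 of 1545 nt and 569 of 1378 nt. Of the 37 genes, 27 held at least 1 iCLIP event, 23 held at least 20, and 7 held no event in any library.

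**Figure D1:**
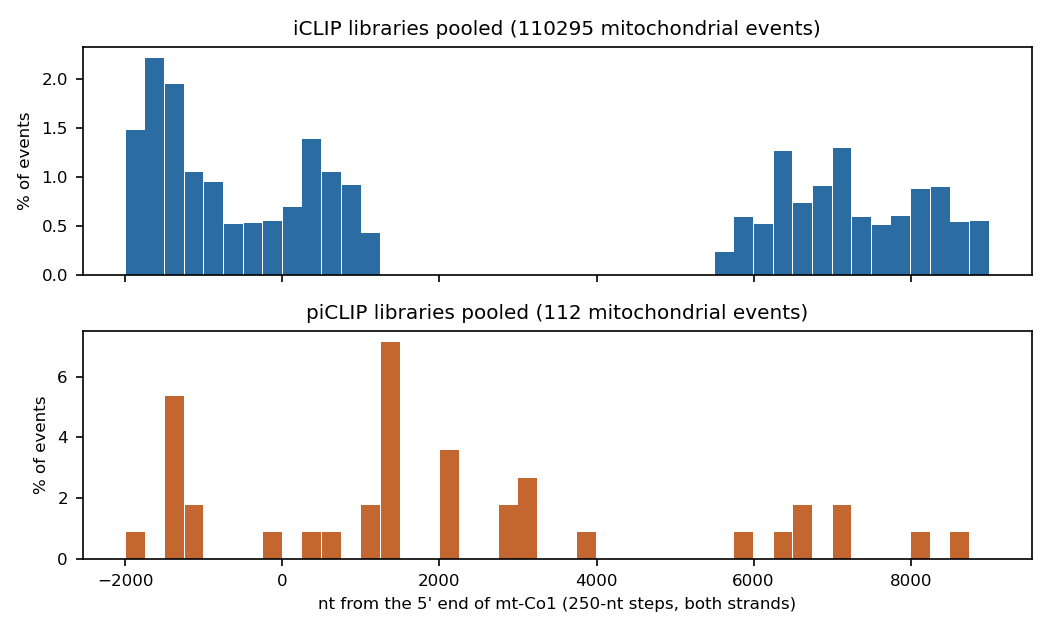
Share of mitochondrial events (both strands) in steps of 250 nt, by distance in nt from the 5′ end of mt-Co1, for the pooled iCLIP libraries (110295 events, upper panel) and the pooled piCLIP libraries (112 events, lower panel). The iCLIP bars are missing from within mt-Co1 to within mt-Nd4, where 19 piCLIP events lie.

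The rRNAs took most mitochondrial events. mt-Rnr2 held 1788, 2565 and 2004 events per 1000000 placed events (CPM) in WT 2, 3 and 4, a mean of 2119 ± 401 (SD, n = 3). mt-Rnr1 held 731, 1567 and 1217 CPM in the same libraries. Per kb of gene the rRNAs were close, 1339 ± 254 CPM for mt-Rnr2 and 1227 ± 439 for mt-Rnr1 (SD, n = 3), a difference well within the spread. In total rRNA gave 77.9%, 77.3% and 75.4% of the mitochondrial events of WT 2, 3 and 4.

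The measured mRNAs were about an order of magnitude lower per kb. Counting the nucleotides outside the empty stretch, mt-Nd1 was highest in WT at 159 ± 31.9 CPM per kb (SD, n = 3), followed by mt-Cytb (113 ± 50.2), mt-Co1 (102 ± 60.6), mt-Nd5 (80.1 ± 18.1), mt-Nd2 (76.0 ± 25.8), mt-Nd6 (64.5 ± 26.2) and mt-Nd4 (58.1 ± 29.9). Neighbours in this order did not differ beyond their spread. mt-Nd6, the one mRNA of the other strand, was thus in the range of the rest.

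The 17 tRNAs outside the stretch varied widely in level. Per gene, the 5 highest in WT were mt-Tm (34.5 CPM), mt-Tl1 (32.2), mt-Tv (31.0), mt-Tp (22.3) and mt-Tc (17.7), the tRNAs for methionine, one leucine codon family, valine, proline and cysteine. For mt-Tm the mean rested on WT 2, with 76.7 CPM against 16.4 in WT 3 and 10.4 in WT 4. mt-Tp and mt-Tc are encoded on the same strand as mt-Nd6. The other tRNAs of that strand outside the stretch included some of the lowest, with 26 iCLIP events over all libraries in mt-Tn, 12 in mt-Ty and 3 in mt-Te; mt-Tw, on the strand of the rRNAs, had 5.

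Antisense events were rare over the rRNAs and frequent at mt-Nd5 and mt-Nd6. The 2 rRNAs held 18 antisense events against 74635 sense events in the pooled iCLIP libraries. In mt-Nd1 and mt-Co1 0.728% and 0.651% of these pooled events were antisense, most of them from the deep mutZn libraries. mt-Nd5 held 44.2 CPM antisense and 146 sense in WT (means, n = 3), and 33.1 and 255 in mutZn (n = 2). mt-Nd6, where antisense means the strand of the rRNAs, held 16.8 CPM antisense and 33.5 sense in WT, and 41.3 and 26.7 in mutZn. The antisense signal thus lay mostly in the mt-Nd5 and mt-Nd6 region. The control region, the non-coding segment with the promoters, gave at most 1.01% of the mitochondrial events in any iCLIP library, in RRM_OE 4.

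The share of all events that fell on the mitochondrial genome was similar for the 3 proteins, and the differences could not be tested firmly with 2 or 3 libraries each. It was 0.323%, 0.534% and 0.427% in WT 2, 3 and 4, 0.412% and 0.447% in mutZn 3 and 4, and 0.323% and 0.384% in D27aa 1 and 2. The ranges of mutZn and D27aa lay inside or at the edge of that of WT. The mean was 0.428 ± 0.106% in WT (SD, n = 3), 0.430 ± 0.0243% in mutZn (n = 2) and 0.353 ± 0.0433% in D27aa (n = 2). An exact two-sided permutation test on log2 shares gave p = 0.90 for mutZn against WT and p = 0.40 for D27aa against WT, where the smallest possible p is 0.10. Both mutZn libraries lay above both D27aa libraries, by a log2 difference of 0.29 against a largest within-group SD of 0.18, with an exact permutation p of 0.33, the smallest possible. When each crosslinked position counted once, mutZn (0.0748% and 0.113%) lay below the WT libraries (0.126% to 0.238%). Within run 6, WT 3 and WT 4 bracketed mutZn 4 and lay above D27aa 2, and in run 5 WT 2 and D27aa 1 had the same share to 3 digits. Over the 9 comparisons of shares made, no Benjamini-Hochberg adjusted p of these exact permutation tests was below 0.72.

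The share was not higher with UV than without. Without UV it was 1.34% for WT (exact 95% binomial interval 1.27% to 1.42%, 1193 of 88997 events), 0.401% for mutZn (0.354% to 0.452%) and 0.384% for D27aa (0.322% to 0.454%). The WT library without UV thus lay above every UV library, whereas those of mutZn and D27aa lay among them. Over all 3 proteins the share with UV was 0.680 times that without (7 against 3 libraries, exact permutation p = 0.20, smallest possible 0.00833), and without the WT library without UV the log2 difference was 0.03 in place of -0.56. When each crosslinked position counted once, the share of positions was lower with UV (log2 difference -1.49, exact permutation p = 0.017); the libraries with UV are also the deeper ones, and the part of depth was not tested. The intervals cover counting error only. The anti-SRSF7 library without UV (13 of 1780 events, 0.730%) and the one without antibody (41 of 3069 events, 1.34%) also held mitochondrial events, at 0.389% to 1.25% and 0.960% to 1.81% by exact interval. The sparse control libraries thus held a mitochondrial share within or above the range of the libraries with UV and the same antibody, except that the no-antibody library has no counterpart.

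**Figure D2:**
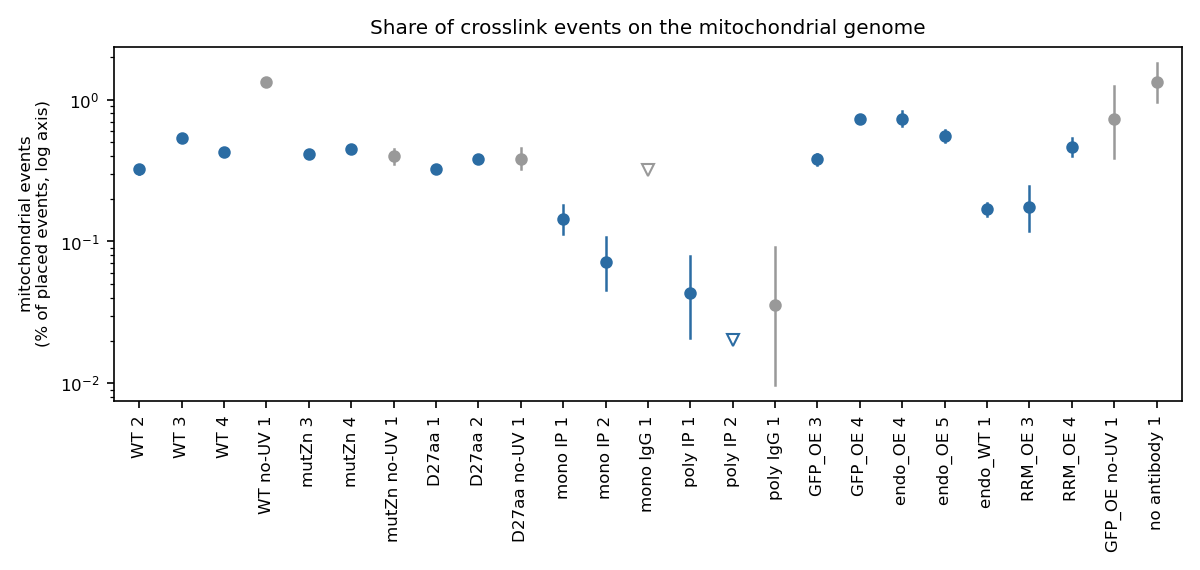
Share of placed events on the mitochondrial genome per library in percent (log axis), with exact 95% binomial intervals; blue, UV immunoprecipitates; grey, libraries without UV or antibody or titled IgG; open triangles, upper interval bound of libraries with 0 events. The WT library without UV (1.34%) stands above the UV libraries of WT (0.323% to 0.534%), and the piCLIP libraries lie lowest.

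In the fit across all features, no mitochondrial gene passed the threshold between UV and no UV. Of 12542 features tested by limma-voom with the protein as a term (the mitochondrial genes by strand and 5000-nt windows of the other chromosomes), 31 or 0.247% were called at an adjusted p under 0.05. Of the 20 mitochondrial genes tested 0 were. limma-trend called 0 of them as well, and 195 of the 12542 features. An unadjusted p under 0.05 in the limma-voom fit was seen for 3 genes. The 3 were the tRNAs mt-Tq, mt-Tl1 and mt-Tf. The WT library without UV held 3236 CPM in mt-Tl1 and 1360 in mt-Tf, against 14.9 to 40.97 and 9.03 to 16.4 in the 3 WT libraries with UV. Without UV, mutZn held 75.0 CPM (5 events) in mt-Tl1 and 15.01 in mt-Tf, and D27aa held 0 in both, so the high signal in both was seen in 1 library of 3. The fitted log2 differences, UV minus no UV, were -3.38 ± 1.11 (SE) for mt-Tl1 with an adjusted p of 0.16 and -2.60 ± 1.08 for mt-Tf with 0.27. mt-Tq, the glutamine tRNA, had 124, 45.0 and 28.6 CPM without UV in WT, mutZn and D27aa and 2.66 to 22.6 CPM in the 7 libraries with UV. It did not overlap between the groups, and its log2 difference was -2.79 ± 0.61 with an adjusted p of 0.058. In the libraries without UV, 45.0 CPM is 3 events in mutZn and 28.6 CPM is 1 event in D27aa, so the gap rests on few events. How many of all features did not overlap was not counted. tRNAs made up 41.5% of the mitochondrial events of the WT library without UV, 8.99% of those of mutZn and 2.99% of those of D27aa without UV. Other settings called up to 8 genes. This number was highest without the filter on low features, where 8 of 27 genes and 328536 of 467601 features were called.

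The composition by class differed more between the proteins than the total share did. tRNAs gave 14.2% and 21.7% of the mitochondrial events in D27aa 1 and 2, against 8.38%, 4.06% and 3.28% in WT 2, 3 and 4 and 4.77% and 5.01% in mutZn 3 and 4. mRNAs gave 8.81% and 9.12% in D27aa, 12.7%, 15.9% and 18.5% in WT, and 26.3% and 27.1% in mutZn. D27aa thus had the most tRNA and the least mRNA, mutZn the most mRNA, and the 3 groups did not overlap in the mRNA share. Of the WT libraries, WT 2 was the nearest to D27aa in both. D27aa 1 and 2 held 376536 and 388411 events and the mutZn libraries 11774078 and 6431982, so that depth moved with the protein; its part was not tested.

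**Figure D3:**
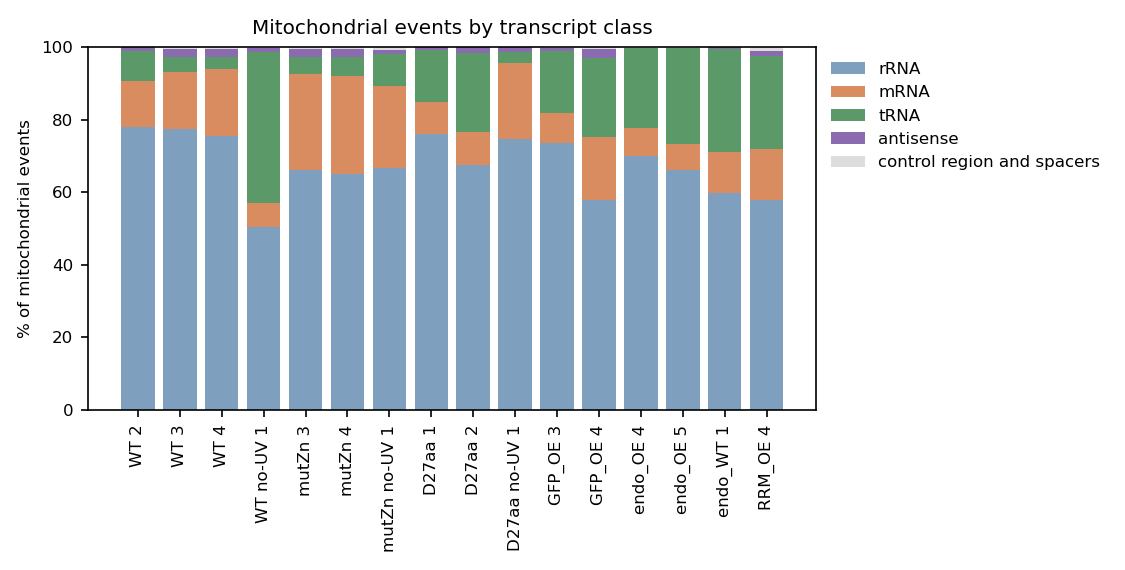
Mitochondrial events by class in percent of each library's mitochondrial events, for the libraries with at least 100. tRNA takes 14.2% and 21.7% in D27aa and 41.5% in the WT library without UV, and mRNA takes 26.3% and 27.1% in mutZn.

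Against WT, D27aa had more events in tRNAs and fewer in mRNAs. Of the 20 mitochondrial genes tested 15 passed the threshold (limma-voom over 36188 features, of which 1178 or 3.26% were called), 9 higher and 6 lower. The 9 higher genes were tRNAs, out of 11 tRNAs tested, and the 6 lower ones were 5 of the 7 mRNAs tested and mt-Rnr1. The median log2 difference was 2.21 over the tRNAs and -1.09 over the mRNAs, against 0.05 over all features. Higher features made up 2.87% and lower ones 0.384% of all tested.

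The largest rise was that of mt-Ts2, a serine tRNA, at 61.1 and 100.4 CPM in D27aa 1 and 2 against 22.6, 6.37 and 5.06 in WT 2, 3 and 4. The groups did not overlap, and the fitted log2 difference was 3.93 ± 0.29 (SE), a 15.2-fold rise, with an adjusted p of 4.4e-10. The fit weights deep libraries more than shallow ones, so its fold exceeds the ratio of the group means where WT 2 was high. mt-Tl1 held 106 and 169.9 CPM in D27aa and 40.6, 40.97 and 14.9 in WT, a log2 rise of 2.82 ± 0.27 (adjusted p 5.1e-08). mt-Tc held 55.8 and 79.8 CPM against 31.6, 11.8 and 9.62, a log2 rise of 2.78 ± 0.23 (adjusted p 2.4e-09). The isoleucine tRNA mt-Ti and the phenylalanine tRNA mt-Tf rose by 2.78 ± 0.31 and 2.68 ± 0.31 on the log2 scale, to 70.1 ± 42.8 and 72.9 ± 31.7 CPM (SD, n = 2). These 5 tRNAs were called in each of the 5 fits that left out 1 library. Within run 6, where D27aa is a single library and the spread comes from the other libraries of that run, they had the same direction. WT 2 was again the WT library closest to D27aa in mt-Ts2 and mt-Tc.

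The other 4 tRNA calls were less firm. mt-Tm rose by 2.21 ± 0.30 on the log2 scale (adjusted p 1.8e-05), but its groups overlapped, since WT 2 held 76.7 CPM and D27aa 37.2 and 74.7. mt-Ta, mt-Tl2 and mt-Tv, for alanine, a second leucine family and valine, rose by 1.61, 1.63 and 0.79 with adjusted p of 0.020, 0.028 and 0.027. Without WT 2 their adjusted p were 0.060, 0.070 and 0.18; mt-Tv passed in none of the 5 fits that left out 1 library, mt-Ta in 2 and mt-Tl2 in 1, and without D27aa 2 the adjusted p were 0.61 for mt-Ta, 0.73 for mt-Tl2, 0.77 for mt-Tv and 0.11 for mt-Tm. mt-Tp and mt-Tq did not pass, with log2 differences of 0.75 ± 0.28 (adjusted p 0.19) and 0.48 ± 0.99 (0.93).

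Among the mRNAs, mt-Co1 fell by 1.38 on the log2 scale (SE 0.36, adjusted p 0.030), from 36.1, 160.2 and 135 CPM in WT 2, 3 and 4 to 39.8 and 48.9 in D27aa. D27aa was below WT 3 and WT 4 but not below WT 2. mt-Nd1 fell by 1.17 (SE 0.20, adjusted p 0.00044), with 53.1 and 77.2 CPM in D27aa below the 122, 183 and 152 of WT. mt-Nd2, mt-Nd5 and mt-Cytb fell by 1.09, 1.01 and 0.91, with adjusted p of 0.016, 0.0026 and 0.040. mt-Nd4 and mt-Nd6 were also lower without passing, with log2 differences of -1.07 ± 0.48 and -2.50 ± 0.85 and adjusted p of 0.34 and 0.13. The 5 mRNA calls held without WT 2, with adjusted p from 0.0021 to 0.027, but none of the 5 passed within run 6 or without D27aa 1 (adjusted p 0.080 for mt-Nd1, 0.19 for mt-Nd5, 0.22 for mt-Nd2, 0.25 for mt-Co1 and 0.35 for mt-Cytb). mt-Nd2, mt-Co1 and mt-Cytb also missed the threshold without WT 4 (adjusted p 0.13, 0.26 and 0.34) or without D27aa 2 (0.14, 0.12 and 0.19), and mt-Cytb without WT 3 (0.068). Their sign was negative in each of these fits. mt-Rnr1 fell by 0.81 (adjusted p 0.0096), a call that was lost without WT 2 (adjusted p 0.70), WT 4 (0.17) or D27aa 1 (0.14), while mt-Rnr2 stood at -0.09 ± 0.09. With the sequencing run as a block, the 15 genes were called again, among 2944 of 36188 features. limma-trend, which gives shallow and deep libraries equal weight, called 0 mitochondrial genes and 15 of 36188 features.

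**Figure D4:**
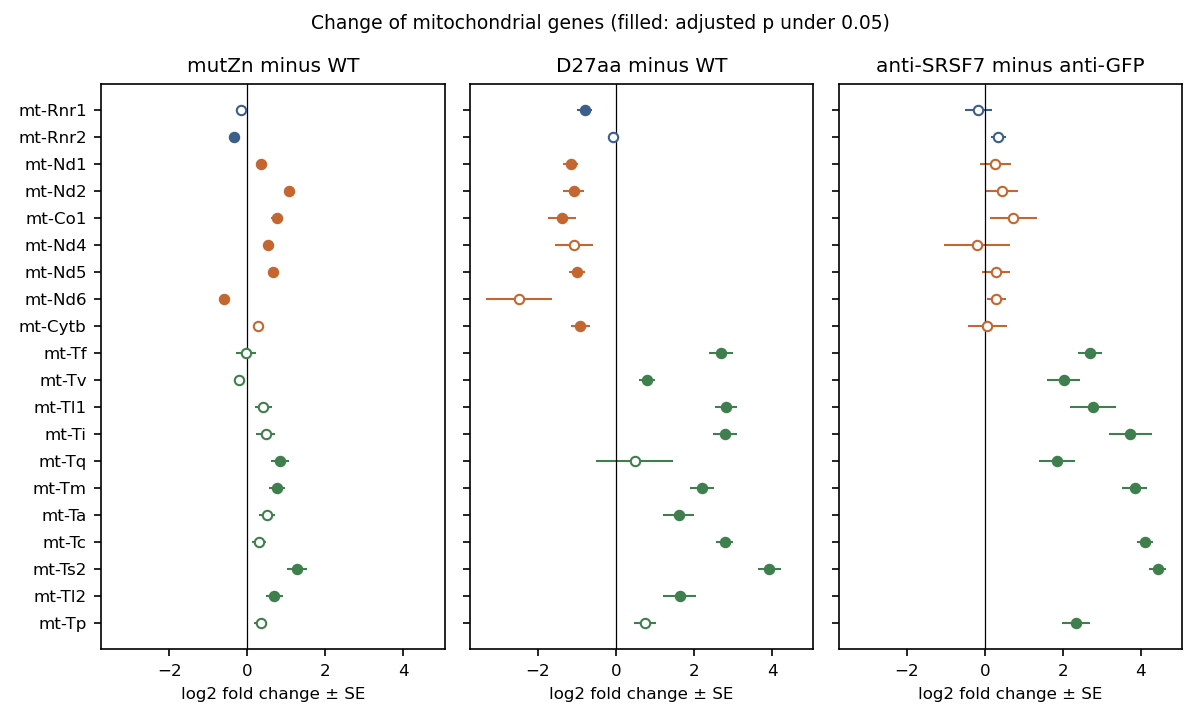
Fitted log2 fold change with its standard error for each mitochondrial gene tested, for mutZn minus WT, D27aa minus WT and anti-SRSF7 (GFP_OE) minus anti-GFP (WT); blue, rRNA; orange, mRNA; green, tRNA; filled points have an adjusted p under 0.05. The tRNA points lie to the right of 0 for D27aa and for anti-SRSF7, and the mRNA points lie on opposite sides of 0 for mutZn (except mt-Nd6, to the left in both) and D27aa.

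Against WT, mutZn had more events in the mRNAs of the heavily transcribed strand. Of 20 genes tested, 11 passed the threshold, 9 higher and 2 lower, where 29.0% of the 36188 features were called (14.0% higher, 15% lower). limma-trend called 0 of these genes and 26 of the 36188 features. The WT libraries are those of the D27aa comparison. mt-Nd2 rose most among the mRNAs, from 49.7, 84.7 and 102 CPM in WT 2, 3 and 4 to 185 and 208 in mutZn 3 and 4, a log2 difference of 1.06 ± 0.11 (SE, adjusted p 5.0e-08). mt-Co1 rose by 0.75 ± 0.15 to 206 and 232 CPM (adjusted p 0.00046). mt-Nd5 rose by 0.66 ± 0.09 (adjusted p 3.8e-06), mt-Nd4 by 0.54 ± 0.13 (0.0030) and mt-Nd1 by 0.36 ± 0.09 (0.0027). In each of these 5 mRNAs the mutZn libraries lay above the WT libraries. So they did in mt-Cytb, which did not pass (0.28 ± 0.12, adjusted p 0.077). How many of all features separated in this way was not counted. mt-Rnr2 fell by 0.35 on the log2 scale (SE 0.06, adjusted p 6.7e-05), with 1693 and 1669 CPM in mutZn below every WT library. mt-Nd2, mt-Co1 and mt-Nd5 were called in each of the 5 fits that left out 1 library. mt-Nd1 missed the threshold without WT 4 (adjusted p 0.16) or mutZn 4 (0.059), mt-Nd4 without WT 4 (0.11), and mt-Rnr2 without mutZn 3 (0.058) or mutZn 4 (0.054).

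Direction for mutZn depended on how a position is counted. When each crosslinked position counted once, 8 of the 9 higher genes had a difference below 0, mt-Nd1 at -0.67 and mt-Nd2 at -0.00. That fit tested 19 mitochondrial genes in place of 20. No value of the remaining higher gene, mt-Tl2, is given for it, so mt-Tl2 is not taken as having kept its direction. mutZn 3 and 4 held 6.54 and 4.49 events per mitochondrial position, against 1.53, 2.44 and 3.81 in WT 2, 3 and 4, so that counting positions once lowers the deepest libraries most. The tRNAs among the calls were mt-Ts2 (log2 difference 1.27 ± 0.25), mt-Tq (0.83 ± 0.24), mt-Tm (0.75 ± 0.20) and mt-Tl2 (0.68 ± 0.22). The means of mt-Tq and mt-Tm were nevertheless lower in mutZn (10.8 and 21.8 CPM) than in WT (12.7 and 34.5), where WT 2 was high in both and has a small weight in the fit. Without WT 4 mt-Ts2 and mt-Tm no longer passed (adjusted p 0.18 and 0.69), without WT 3 mt-Tm had 0.063 and without mutZn 4 0.056, and mt-Tl2 passed in 1 of 4 such fits (0.082 without WT 2, 0.20 without WT 3, 0.30 without WT 4).

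The strand balance at mt-Nd5 and mt-Nd6 also differed between mutZn and WT. Sense events of mt-Nd6 fell by 0.60 on the log2 scale (SE 0.13, adjusted p 0.0013) and the events opposite to mt-Nd5, which come from the same strand as mt-Nd6, fell by 0.80 (SE 0.15, adjusted p 0.00023). Events opposite to mt-Nd6, on the strand of mt-Nd5, rose by 0.98 ± 0.14 (adjusted p 1.1e-05). Within the mt-Nd6 gene outside mt-Nd5, the mt-Nd6 strand gave 67.1% and 65.1% of events in WT 3 and WT 4 and 39.0% and 40.5% in mutZn 3 and 4. WT 2 held too few events there (under 20). Along mt-Nd5 the strand of mt-Nd6 gave 11.1%, 26.5% and 26.1% of events in WT 2, 3 and 4 and 11.4% and 11.5% in mutZn. The 2 deep WT libraries thus held relatively more of the mt-Nd6 strand than mutZn in both genes, and WT 2 (3 of 27 events) was at the mutZn level in mt-Nd5. The fall of mt-Nd6 did not pass within run 6, at a log2 difference of -0.50, nor without WT 3 (adjusted p 0.14), and that opposite to mt-Nd5 had an adjusted p of 0.054 without WT 3.

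mutZn and D27aa, compared directly, differed in the same classes. Of 20 genes tested 13 passed, 7 lower and 6 higher in mutZn, where 3.74% of all 36188 features were called (3.24% lower, 0.497% higher). The 7 lower ones were tRNAs: mt-Tf (-2.73 ± 0.26 on the log2 scale), mt-Ts2 (-2.66 ± 0.22), mt-Tc (-2.49 ± 0.20), mt-Tl1 (-2.42 ± 0.24), mt-Ti (-2.32 ± 0.26), mt-Tm (-1.45 ± 0.27) and mt-Tv (-0.995 ± 0.19). The 6 higher ones were mt-Rnr1 and the mRNAs mt-Nd1, mt-Nd2, mt-Co1, mt-Nd5 and mt-Cytb, with folds from 1.56 to 4.44. For mt-Nd2 the values were 185 and 208 CPM in mutZn and 37.2 and 41.2 in D27aa, and for mt-Co1 206 and 232 against 39.8 and 48.9. In each of the 13 genes the 2 mutZn libraries did not overlap the 2 of D27aa. The genes were called on these same values, and the share of all features without overlap was not counted. With each position counted once the sign turned in mt-Rnr1 (-2.07) and mt-Nd1 (-0.14). Of the 13, 9 were called in each of the 4 fits that left out 1 library; mt-Tm and mt-Tv missed the threshold without D27aa 2 (adjusted p 0.54 and 0.55), mt-Tm also without mutZn 3 (0.057), mt-Cytb without mutZn 4 or D27aa 1 (0.071 and 0.057), and mt-Rnr1 without mutZn 3, mutZn 4 or D27aa 1 (0.13, 0.43 and 0.23). Within run 6 none of the 5 mRNAs passed. These libraries are the same as in the contrasts against WT. When only the 4 libraries of mutZn and D27aa were fitted, none of 22 genes tested passed, and of all features 2 of 77685 did. limma-trend called 0 mitochondrial genes and 16 of the 36188 features.

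Within the 16S rRNA, D27aa had a site at nt 579 that was far lower in WT and mutZn, while it was near the WT level at positions 1321 and 2647, the highest in WT. The positions described first are the 10 highest in WT by mean CPM, 7 of them in mt-Rnr2 and 3 in mt-Rnr1, all on the plus strand of chrM (mm9). They are 1321 (53.5 CPM), 2647 (50.7), 338 (43.9), 2646 (40.3), 1854 (37.8), 1852 (35.0), 1565 (32.3), 495 (31.2), 367 (27.8) and 1672 (27.1). Position 338 is nt 269 of mt-Rnr1 and the highest of that gene; 1321 is nt 228 of mt-Rnr2. Positions 2646 and 2647 are nt 1553 and 1554 of mt-Rnr2, close to its 3′ end at nt 1582. At 1321 and 2647 the mean of D27aa was 50.7 and 73.1 CPM, near that of WT. At 1672 (nt 579 of mt-Rnr2), D27aa 1 and 2 held 226 and 206 CPM, WT 2, 3 and 4 held 63.2, 11.8 and 6.33, and mutZn 3 and 4 held 8.24 and 4.04. This single nucleotide took 12.3% and 10.9% of the mt-Rnr2 events of D27aa, 3.54% in WT 2 and at most 0.487% in WT 3, WT 4 and mutZn. The WT library without UV held 67.4 CPM there, from 6 events. Conversely, at 1854 (nt 761) D27aa held 7.97 and 7.72 CPM, below the 26.3 to 51.0 of WT and the 13.8 and 18.8 of mutZn. The 10 positions were chosen on WT values, so their WT levels are high by that choice.

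In sections of 100 nt, nt 501 to 600 of mt-Rnr2 took 28.2% and 21.04% of the gene's events in D27aa 1 and 2, against 9.34%, 6.14% and 7.15% in WT 2, 3 and 4 and 8.60% and 7.05% in mutZn. The D27aa library without UV had 11.9% there (8 of 67 events). In the anti-SRSF7 UV libraries with at least 50 events in the gene the value was between 1.27% and 5.09%. Both D27aa UV libraries were therefore above all the others. The D27aa library without UV came next, from few events. The last section, nt 1501 to 1582, took 16.9% and 19.1% in D27aa, 19.9% in WT 2, 8.73% and 6.38% in WT 3 and 4, 9.40% and 8.37% in mutZn, and 20.5% and 22.2% in endo_OE. Here WT 2 lay with D27aa and apart from the WT libraries of run 6. With 2 or 3 libraries a group no exact test of such a share can reach 0.05, and these values are descriptions.

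**Figure D5:**
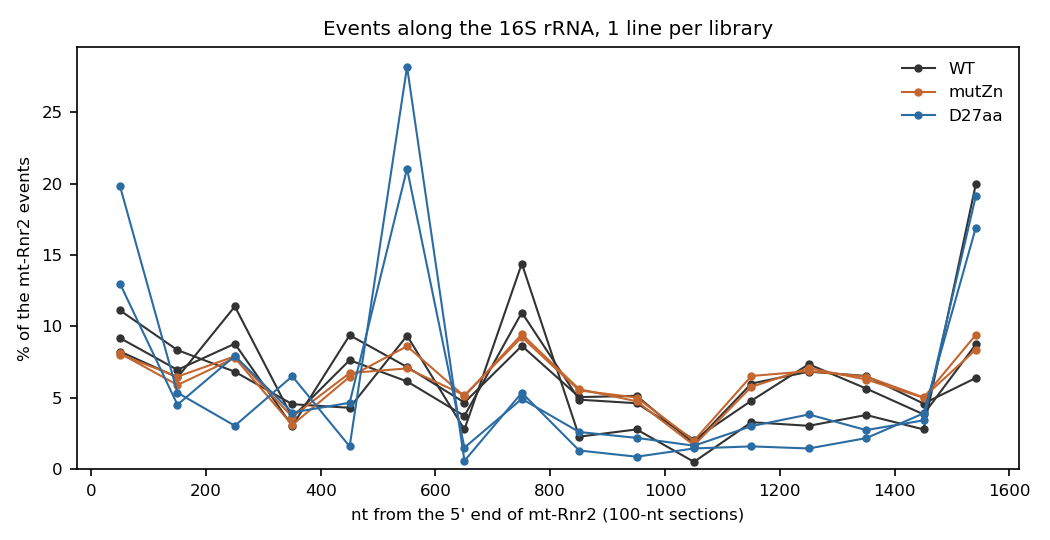
Share of mt-Rnr2 events in percent per 100-nt section, by distance in nt from the 5′ end of the gene, 1 line for each WT, mutZn and D27aa UV library. D27aa reaches 28.2% and 21.04% in nt 501 to 600, where the other lines are between 6.14% and 9.34%.

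In the WT library without UV, nt 801 to 900 of mt-Rnr1 took 39.4% of the gene's events (114 of 289), against 32.7%, 18.1% and 16.5% in WT 2, 3 and 4 with UV. Position 1007 (nt 938 of mt-Rnr1), the gene's highest in that library and named after its values were seen, held 191 CPM (5.88% of the gene's events) without UV and 4.51, 0.910 and 0.760 CPM in WT 2, 3 and 4. These are values of 1 library, and its section value was close to that of WT 2.

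Events in tRNAs gathered in the middle of the molecule, around the anticodon arm. Nucleotides 21 to 40 took 59.2 ± 5.19% of tRNA events in WT (SD, n = 3), 55.2 ± 4.28% in mutZn (n = 2), 57.5 ± 0.373% in D27aa (n = 2) and 69.5 ± 0.539% in GFP_OE (n = 2). The WT library without UV had a higher value than any of these, 82.2% (407 of 495 events). Of these 407 events, 157 lay at nt 28 of mt-Tl1 and 87 at nt 36 of mt-Tf. The pattern was thus also seen in 1 library without UV, where 2 nucleotides carried much of it. The mutZn and D27aa libraries without UV held 24 and 4 tRNA events, too few for a share. Of the tRNAs with at least 15 events in a library, 9 of 11 had their highest nucleotide in that section in WT 4, 10 of 13 and 11 of 13 in mutZn 3 and 4, 4 of 6 and 6 of 8 in D27aa 1 and 2, 8 of 10 in GFP_OE 4 and 2 of 4 in endo_OE 5. The highest nucleotide was nt 36 in mt-Tf (28.7% to 73.0% of its events in WT 4, mutZn 3 and 4, D27aa 2 and GFP_OE 4), nt 21 in mt-Ts2 (28.2% to 62.5%) and nt 29 or 30 in mt-Tc (32.9% to 53.5%). mt-Tv and mt-Th were different: mt-Tv was highest at its 3′ end, nt 68 or 69, in WT 4, mutZn 3, mutZn 4 and D27aa 2, next to the 5′ end of mt-Rnr2, but at nt 18 in GFP_OE 4, and mt-Th was highest at nt 66 in mutZn 3 and 4.

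D27aa differed in where the pooled tRNA events lay, as well as in their number. The sections pool all tRNAs, and D27aa also differed in the mix of tRNAs. Section shares within single tRNAs were not compared, so a shift within molecules was not tested. Nucleotides 41 to 60, after the anticodon arm, took 30.1% and 28.5% of tRNA events in D27aa 1 and 2, 16.7% (10 of 60 events) in WT 2, 4.62% and 2.53% in WT 3 and 4 and 3.63% and 4.93% in mutZn. D27aa lay above all of these, and WT 2 between the groups. In return nt 1 to 20 took 5.78% and 10.2% in D27aa 1 and 2 and 23.2 ± 6.20% in WT (SD, n = 3). In nt 41 to 60 GFP_OE, whose tRNA levels were also above WT, had 4.82% and 8.96%, and in nt 1 to 20 it had 22.9% and 20.2%, in the range of WT. In the WT library without UV, nt 28 of mt-Tl1 (position 2703) held 1764 CPM, 54.5% of its 288 events, and nt 36 of mt-Tf (position 36) held 978 CPM, 71.9% of 121 events. These 2 positions were named after their values were seen. With UV, position 2703 held 2.79 to 17.3 CPM in WT.

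The same overexpressed protein gave more tRNA events with anti-SRSF7 than with anti-GFP. Between GFP_OE and WT, 9 of 18 mitochondrial genes tested passed, where 10.3% of the 9910 features were called (7.95% higher, 2.39% lower; 788 and 237 features, or 605 and 307 with scaling by library total). The 9 were all 9 tRNAs tested, and each was higher with anti-SRSF7. Of the 7 mRNAs and 2 rRNAs tested 0 passed, nor did any have an unadjusted p under 0.05. limma-trend called 0 mitochondrial genes and 7 of the 9910 features. mt-Ts2 held 94.7 and 119 CPM in GFP_OE 3 and 4 (22.6, 6.37 and 5.06 in WT 2, 3 and 4), a log2 difference of 4.43 ± 0.23 (SE, adjusted p 2.1e-05) or 21.5-fold. mt-Tc held 150 and 182 CPM in GFP_OE 3 and 4, 4.11 ± 0.20 above WT on the log2 scale (adjusted p 2.1e-05), and mt-Tm 118 and 210.1 CPM, 3.84 ± 0.33 above (adjusted p 0.00031). The groups did not overlap in any of the 3, which were called on these same values, and the share of all features without overlap was not counted.

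The other tRNAs rose from 1.86 (mt-Tq) to 3.73 (mt-Ti) on the log2 scale, and mt-Tv, mt-Tl1, mt-Tf and mt-Tp by 2.03, 2.76, 2.70 and 2.34. These rested more on GFP_OE 4: mt-Ti held 195 CPM in GFP_OE 4 and 31.6 in GFP_OE 3, and without GFP_OE 4 the number of genes called was 3. mt-Tc and mt-Ts2 kept their call in each of the 5 fits that left out 1 library, and without WT 4 they were the 2 genes called (mt-Tm had an adjusted p of 0.073, mt-Tf 0.066). mt-Tv also missed the threshold without WT 3 (0.071) and mt-Tq without GFP_OE 3 (0.23). The anti-SRSF7 and anti-GFP libraries came from different sequencing runs, so that the antibody and the run cannot be told apart. The share of tRNA in the mitochondrial events was 17.2% and 21.9% in GFP_OE, 21.95% and 26.4% in endo_OE, 28.3% in endo_WT and 19.4% and 25.6% in RRM_OE. Each of these lay above the highest WT value of 8.38%. In the no-antibody library it was 14.6% (6 of 41 events) and in the anti-SRSF7 library without UV 7.69% (1 of 13).

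Among the anti-SRSF7 products no mitochondrial gene passed the threshold. Against GFP_OE, 0 of 12 genes were called for RRM_OE and 0 of 12 for endo_OE, where limma-voom called 0 of 448 features (0.0%) in both; 0 and 1 mitochondrial genes had an unadjusted p under 0.05, and limma-trend called 0. The 1 was mt-Tc, at 0 and 59.8 CPM in endo_OE 4 and 5 against 150 and 182 in GFP_OE, a log2 difference of -2.72 ± 0.94 (adjusted p 0.37). mt-Rnr2 held 4364 and 2801 CPM in endo_OE, 2187 and 2919 in GFP_OE, 1071 and 1839 in RRM_OE and 743 in endo_WT. RRM_OE lay below GFP_OE in mt-Rnr2 at -1.09 ± 0.49 (adjusted p 0.98). The mitochondrial share was 0.735% and 0.553% in endo_OE, 0.381% and 0.724% in GFP_OE, 0.175% and 0.463% in RRM_OE and 0.169% in endo_WT, the single library from cells without the tagged protein. In both groups that were sequenced in runs 2 and 3, replicate 3 (run 2) had the lower share, and within each run RRM_OE lay below GFP_OE, in the share as in mt-Rnr2. With 2 such pairs no exact test can pass the threshold. Exact permutation tests of these shares without the pairing gave p = 0.67 for both RRM_OE and endo_OE against GFP_OE (smallest possible 0.33).

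The piCLIP libraries held few mitochondrial events. The share was 0.143% (75 of 52393 events) and 0.0721% (23 of 31900) in mono IP 1 and 2, and 0.0433% (10 of 23083) in poly IP 1. In poly IP 2 it was 0 of 18319 events, which allows a share of up to 0.0164%, in the monosomal IgG library 0 of 1153 (up to 0.260%), and in the polysomal IgG library 0.0358% (4 of 11158). Both polysomal IPs lay below both monosomal IPs, with means of 0.0217 ± 0.0306% and 0.108 ± 0.0502% (SD, n = 2 each) and an exact permutation p of 0.33, the smallest possible. Against the IgG libraries, the 4 IPs gave p = 0.40 by the same exact permutation test (smallest possible 0.067), with polysomal IgG inside their range. Each piCLIP share lay below the lowest iCLIP share of 0.169%, but for the monosomal IgG library the depth cannot show such a difference.

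By gene, mono IP 1 had 41 of its 75 mitochondrial events in mt-Rnr2, 6 in mt-Rnr1 and 5 in mt-Tm, and mono IP 2 had 8 of 23 in mt-Co1, 6 in mt-Rnr2 and 0 in mt-Rnr1. mRNA events were 22.7% and 69.6% of the 2, so the monosomal libraries did not agree in composition. No mitochondrial gene reached the filter of the poly against mono fit, in which limma-voom called 0 of 264 features (0.0%; 10 at an unadjusted p under 0.05).

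The authors' deposited peak lists were called on the summed libraries of a group. The D27aa list had 355 mitochondrial peaks of 34759 (1.02%), of which 226 lay in rRNAs, 101 in tRNAs and 28 in mRNAs. The WT list had 3004 of 2045481 (0.147%), with 704 in rRNAs, 239 in tRNAs and 1764 in mRNAs; its header names 4 libraries, 1 more than were analysed here, and 274 of its peaks lay at positions without an event in these. The mutZn list had 2969 of 2246120 (0.132%), with 831 in rRNAs, 227 in tRNAs and 1895 in mRNAs. By number of peaks mRNAs thus led in the 2 long lists and rRNAs in the short one. Without UV the lists held 149 mitochondrial peaks for WT (4.06% of 3666), 3 for mutZn and 0 for D27aa. The summed piCLIP list held 7, of which 4 lay in the stretch that iCLIP left empty, and no iCLIP list had a peak there. List lengths follow depth, so that the numbers of peaks are not compared between lists.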

How the data were processed

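Crosslink events of 25 libraries (iCLIP 19, piCLIP 6; P19 cells) were deposited by the authors as scores per nucleotide, positive on the plus and negative on the minus strand, per the file headers; genome mm9, with CASAVA 1.4 named in the submitters' processing notes. No aligner is named in the labels or headers. Absolute scores were summed per mitochondrial gene and strand (37 of 37 genes matched to the RefSeq table of GRCm38.p6) and per 5000-nt window of the other chromosomes. Because the deposited unit is a score, limma-voom (limma 3.58.1, R 4.3.3) with eBayes was used, scaled by a trimmed mean of log ratios (30% of ratios, 5% of levels), keeping features that reached the CPM of 10 events in a median-sized library in at least 2 libraries and 15 events in total; Benjamini-Hochberg over all features, threshold 0.05. Shares were tested by exact two-sided permutation, on percent for piCLIP, where 0 occurs. Tested on simulated data, the fits of mutZn against WT and anti-SRSF7 against anti-GFP made false calls above the nominal rate, and that of mutZn against D27aa recovered few changes. Totals ran from 1153 to 11774078 events. Replicate numbers of RRM_OE and GFP_OE mark shared runs (correlation of deviations 0.61). Libraries of the tagged proteins are biological replicates per the series' design text; for the others p-values measure the spread between libraries, which may be technical. All 37 genes are accounted for; the rRNAs and mRNAs, the 5 highest tRNAs, the 10 highest WT positions and called genes are named. The members, lists and tests were chosen with earlier results of these data known. Alternatives covered scaling, filter, tool, counting, overlap, run, replicate block and each library.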

Additional observations from a re-analysis of the deposited data

Results flagged for a closer look

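In 4 mRNAs the change against WT went in opposite directions for the 2 variant proteins, passed the threshold in both, and the direct test of mutZn minus D27aa (limma-voom, adjusted over 36188 features) passed too. These were mt-Nd1 (log2 difference 1.52, adjusted p 4.2e-06), mt-Nd2 (2.15, 1.0e-06), mt-Co1 (2.13, 0.00020) and mt-Nd5 (1.66, 9.4e-07). Each had a fitted value higher in mutZn and lower in D27aa than in WT. Both mutZn libraries lay above both D27aa libraries, on the same values that gave the calls. For mt-Co1, however, D27aa (39.8 and 48.9 CPM) was not below WT 2 (36.1). With each position counted once the difference between mutZn and WT turned negative in all 4 (-0.67, -0.0018, -0.27 and -0.19 in the order above), as did that between mutZn and D27aa for mt-Nd1 (-0.14). Fitting only the mutZn and D27aa libraries called 0 genes and 2 of 77685 features. The mutZn libraries were the deepest and D27aa among the shallower, at 11774078 and 6431982 against 376536 and 388411 events, and the part of depth was not tested. No group held 4 or more libraries, so no search for outlying libraries within a group was made.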

How the results depend on the processing

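With each position counted once the log2 difference of the mitochondrial share was -1.49 for UV against no UV (exact permutation p = 0.017, not passed otherwise), -1.04 for mutZn against WT, 0.037 for D27aa against WT and -1.08 for mutZn against D27aa, the last 3 with turned signs. The UV difference was 0.034 without WT no-UV. Leaving out 1 library gave log2 differences from -0.15 to 0.21 for mutZn against WT, from -0.14 to 0.79 for anti-SRSF7 against anti-GFP and from -0.18 to 0.74 for endo_OE against GFP_OE, so that none of these has a settled sign. Numbers of mitochondrial genes called moved more. Under limma-trend 0 genes were called for mutZn against WT, D27aa against WT, mutZn against D27aa and anti-SRSF7 against anti-GFP. Of all features it called 26, 15 and 16 of 36188 and 7 of 9910. The cause was not tested. Fitting only the 2 groups compared gave 6, 9 and 0 genes for the first 3, and run 6 alone, with 1 variant library each, gave 5, 6 and 6. In the fits of only 2 groups 7269 of 93039, 549 of 6750 and 2 of 77685 features passed. With each position counted once 7 genes were called for mutZn against WT, of which 3 were called in the main fit too. This overlap was counted without regard to sign. Under this counting 8 of the 11 genes called in the main fit had turned signs. The numbers were 8 for D27aa against WT, all called in the main fit, and 2 for UV against no UV, neither called there. Without the filter they were 6, 7, 8 and, for anti-SRSF7, 5. Features then called were 1722 and 530 of 465337, 328536 of 467601 and 505 of 309634. For poly against mono 1 gene and 236 of 48055 features were then called. UV against no UV gave 3 genes with scaling by library total and 1 with run as a block (chosen after seeing the data). Leaving out 1 library gave 6 to 11 genes for mutZn against WT, 8 to 13 for D27aa against WT, 11 to 14 for mutZn against D27aa, 2 to 11 for anti-SRSF7 against anti-GFP (2 without WT 4, 3 without GFP_OE 4), 0 to 1 for UV against no UV when a library with UV was left out (3 without D27aa no-UV) and 0 to 1 for endo_OE against GFP_OE. Signs turned when each position counted once in mt-Nd1 (-0.67), mt-Nd2 (-0.0018), mt-Nd4 (-0.081), mt-Nd5 (-0.19), mt-Co1 (-0.27), mt-Tq (-0.24), mt-Tm (-0.41) and mt-Ts2 (-0.23) for mutZn against WT, in mt-Rnr1 for D27aa against WT (0.57) and mutZn against D27aa (-2.07), and in mt-Nd1 for the latter (-0.14); limma-trend turned mt-Tq (-0.050) and mt-Tm (-0.17). Over all features, scaling by total changed the anti-SRSF7 split from 788 higher and 237 lower to 605 and 307. With the replicate block the numbers called were 11 for mutZn against WT, where the numbers do not pair the libraries (correlation of deviations -0.00465), 6 for anti-SRSF7 against anti-GFP (0.04), 0 for RRM_OE against GFP_OE and 0 for poly against mono (0.48 over 2 pairs), where 14 of 264 features of the genome passed with the block and 0 without. Leaving out nucleotides shared by genes changed no number of mitochondrial genes called. Depth limits the D27aa, anti-SRSF7 and control libraries, and piCLIP gave too few events for any gene to be tested.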
